A study of Mus musculus with 12 samples.

Results

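WNT ligands, their frizzled and LRP receptors, their secreted antagonists, the R-spondins with the receptor Lgr5, and the feedback gene Axin2 were described across brain tumours of 3 YAP1 fusions and normal mouse cortex. Members were chosen by symbol: the Wnt, Fzd, Sfrp1 to Sfrp5, Dkk1 to Dkk4 and Rspo1 to Rspo4 genes, with Wif1, Frzb, Axin2, Lgr5, Lrp5 and Lrp6. The rule found 47 of the 24421 gene symbols in the count files, and 41 of them were among the 16364 genes that passed the filter on low counts. RNA was sequenced from 12 libraries in 4 groups of 3. The naive group was normal cortex of mice that received no injection. The other groups were whole tumours that grew after RCAS viruses, avian retroviral vectors, had been injected into the brain, and each group had its own fusion: YAP1-MAMLD1-dR3R1 in the first, YAP1-FAM118B in the second, YAP1-TFE3 in the third. YAP1 is the co-activator restrained by the Hippo pathway, and the series asks which functions its tumour-associated fusions have in common. Not given in the sources used here are mouse strain and age, the promoter of the virus receptor and the meaning of the suffix dR3R1. The labels do not say that the 3 libraries of a group are different animals. Counts of sex-linked genes, given below, show different animals within 3 of the groups and do not decide this for YAP1-TFE3. The p-values cover the spread of these libraries alone, and how much of that spread is technical is not known.

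WNT proteins are secreted, lipid-modified ligands. They bind frizzled receptors, and together with the co-receptors LRP5 and LRP6 they stabilise beta-catenin, which then drives transcription through TCF/LEF factors. Other WNT signals, of which WNT5A is the best known, act through frizzleds and receptors such as ROR and RYK without beta-catenin. Secreted frizzled-related proteins, WIF1 and Dickkopf proteins act outside the cell, and most of them dampen the signal, whereas R-spondins strengthen it through LGR receptors. In the brain WNT signals pattern the dorsal forebrain, guide axons and control the growth of blood vessels.

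Total counts were 19850220 to 24760814 per library, and a gene with 3 counts had a level of 0.116 to 0.145 CPM, where CPM divides counts by the TMM-adjusted library size and rescales them to a common total. Members together took 0.0797 to 0.21% of the counts. Naive replicate 2 and YAP1-FAM118B replicate 2 held counts of both Xist, a transcript of female cells, and the Y-linked Ddx3y, and the counts of called members are also given without them. In the other libraries 1 of these genes was at most 0.434 CPM. Xist was the high one in naive replicate 3, YAP1-MAMLD1-dR3R1 replicate 1 and YAP1-FAM118B replicate 1 (304.7 to 492.5 CPM). Ddx3y was high in the other replicates of these groups and in all YAP1-TFE3 libraries (62.8 to 87.8 CPM). The tissue field names a brain tumour for the naive samples too, and the extraction text describes cultured cells. The neuronal gene Slc17a7 was at 707 to 1627 CPM in the naive libraries. Naive replicate 3 stood apart in Ttr, a gene of the choroid plexus, with 1589 CPM against 2.34 and 67.5 CPM in replicates 1 and 2, and in Tcf7l2, a TCF factor abundant in thalamus, with 78.2 CPM against 4.19 and 6.62. All of these are bulk samples, in which fewer cells of a type and less RNA per cell cannot be told apart.

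Members were called at rates near or below those of all genes against naive and between fusions, and in both directions. Against naive, the edgeR quasi-likelihood test called 21 of 41 members in YAP1-MAMLD1-dR3R1 (13 higher, 8 lower, adjusted p under 0.05), where 63.2% of all genes were called (34.4% higher, 28.8% lower). In YAP1-FAM118B it called 9 members (7 higher, 2 lower) against a background of 29.7% of all genes (21.3% higher, 8.45% lower). In YAP1-TFE3 it called 28 (13 higher, 15 lower) against 70.6% (40.6% higher, 30% lower). Shares of members called were 51.2, 22 and 68.3% in this order. The median log2 fold change of members was 0.17, 0.11 and −0.10, beside 0.06, −0.05 and 0.23 for all genes. Between tumours, 11 members (5 higher, 6 lower) were called in YAP1-FAM118B against YAP1-MAMLD1-dR3R1, with 26.2% of all genes called (12.7% higher, 13.5% lower). YAP1-TFE3 differed from YAP1-MAMLD1-dR3R1 in 15 members (5 higher, 10 lower), against 39.5% of all genes (22.6% higher, 16.9% lower), and from YAP1-FAM118B in 18 (8 higher, 10 lower), against 51.7% of all genes (28% higher, 23.7% lower). Libraries of the 2 groups compared did not overlap for 21, 18, 29, 18, 17 and 22 of the 41 members in these 6 comparisons, in the order given, beside 72.9, 56.7, 75.7, 48.8, 48.2 and 58.4% of all genes. A call in 1 or more of the 6 comparisons was made for 37 of 41 members, or 90.2%, beside 85.7% of all genes. The 9 members called in YAP1-FAM118B against naive became 5 without naive replicate 1 and 14 with DESeq2, and with RLE factors the split was 7 higher and 4 lower. The 11 called between YAP1-FAM118B and YAP1-MAMLD1-dR3R1 became 5 without YAP1-MAMLD1-dR3R1 replicate 2, without its replicate 3 or without YAP1-FAM118B replicate 1, and 4 without both libraries that held Xist and Ddx3y counts. For YAP1-TFE3 against YAP1-FAM118B the split was 8 higher and 16 lower with DESeq2 and 5 higher and 10 lower with library size only.

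Wnt5a, Fzd6, Fzd7, Fzd8 and Lrp5 were higher in all 3 fusions, 5 of 41 members, where 18.6% of all genes were. The number lower in all 3 was 0 with edgeR, where 6.07% of all genes were. At an unadjusted p under 0.05 it was 1, Fzd3, and DESeq2 also called Fzd3 in all 3. Sfrp1, Lgr5, Sfrp5 and Fzd9 went opposite ways, higher in 1 fusion and lower in another, 4 members in all. All 3 fusions were compared with the same naive libraries. Markers of other cell types were higher in the same tumours. The 6 microglia and macrophage genes summed to 157 to 195 CPM in naive, and to 4374 to 6994, 1309 to 1675 and 1155 to 3566 CPM in the fusions in the order above, with 6 of 6 higher in each. The 4 neural stem cell genes summed to 91.5 to 130.1 CPM in naive, and to 1934 to 2705, 2462 to 3565 and 2531 to 3264 CPM, with 3, 2 and 3 of 4 higher. The 5 pericyte and smooth muscle genes summed to 63.8 to 82.1 CPM in naive, and to 254 to 925.5, 595 to 959 and 2596 to 5250 CPM, with 4, 2 and 2 of 5 higher and 1 lower in YAP1-TFE3. None of these markers was at 0 in a whole group, and their part in the rise of the 5 members was not tested. The plot of fold changes sets the fusions side by side for each member.

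**Figure D1:**
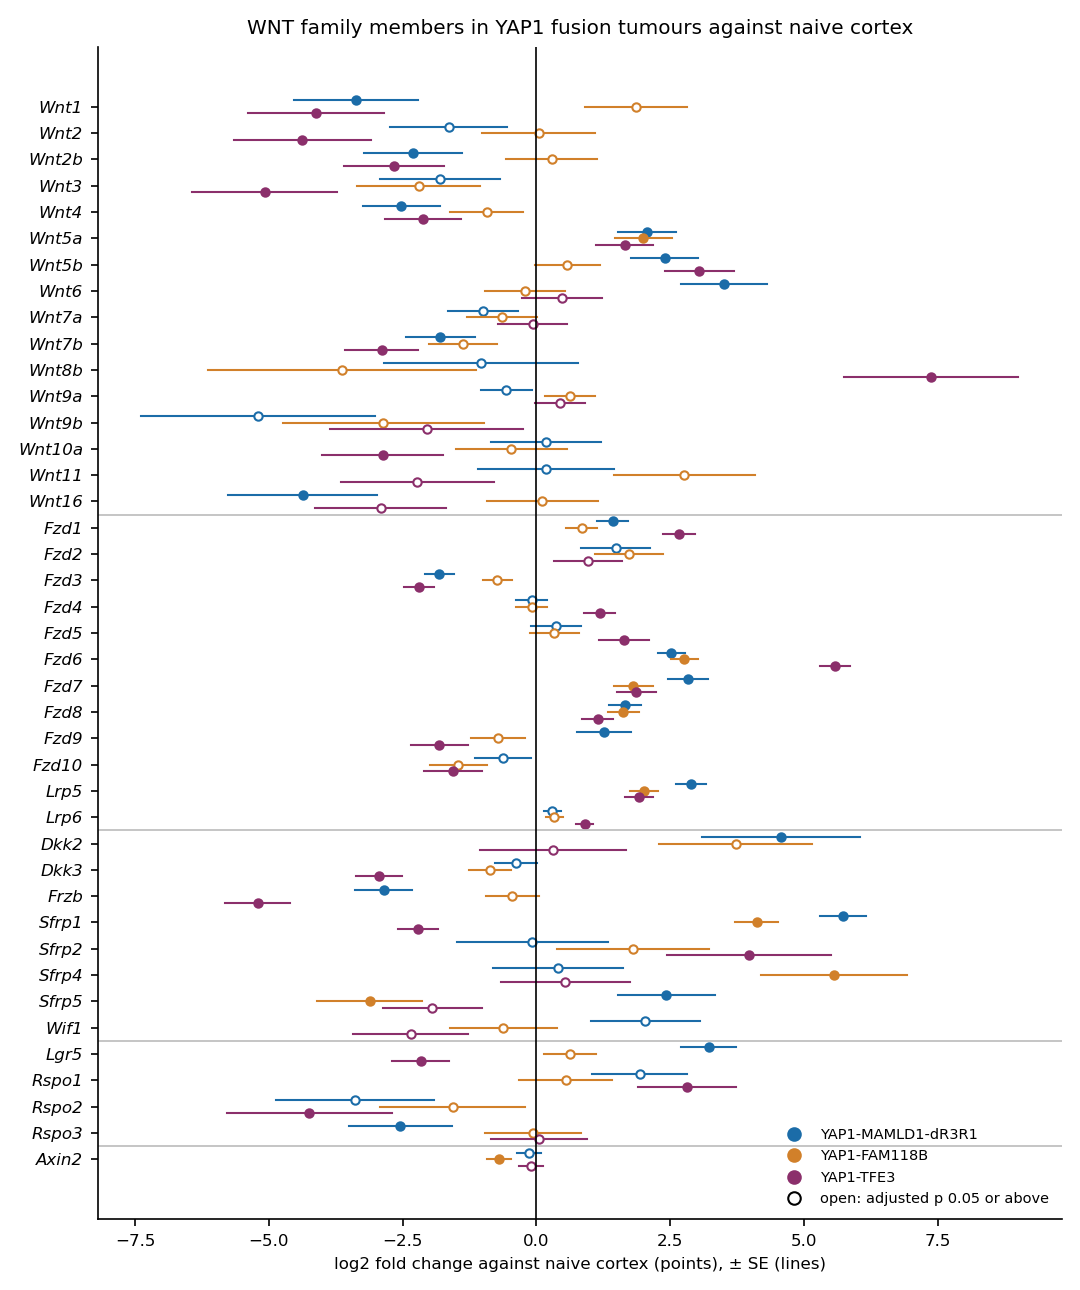
Log2 fold change against naive cortex (x axis) of the 41 members tested, by role from ligands at the top to Axin2 at the bottom, for YAP1-MAMLD1-dR3R1 (blue), YAP1-FAM118B (orange) and YAP1-TFE3 (purple). Points are edgeR estimates, lines are ± SE, and open points had an adjusted p of 0.05 or above; Sfrp1 lies at 5.73 and 4.12 in the first 2 fusions and at −2.21 in YAP1-TFE3.

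Levels summed over a family and divided by exon length (RPKM, CPM per kb of exon) separated the families. Summed over ligands, the level was 39.6 ± 2.01 RPKM (SD, n = 3) in naive cortex, 36.2 ± 9.49 in YAP1-MAMLD1-dR3R1 tumours, 36.7 ± 5.56 in YAP1-FAM118B tumours and 41.3 ± 4.48 in YAP1-TFE3. Library sums of ligands overlapped between all groups, from 25.7 to 45.5 RPKM. Frizzleds summed to 30.3 ± 2.18 RPKM in naive, 59.5 ± 8.69 in YAP1-MAMLD1-dR3R1 tumours, 48.6 ± 9.07 in YAP1-FAM118B tumours and 110 ± 12.3 in YAP1-TFE3. Each tumour library exceeded each naive library in this sum, and the YAP1-TFE3 libraries (95.8 to 119.5 RPKM) lay above all others. Without division by length, frizzleds summed to 218.7 to 246 CPM in naive and 243.1 to 303.8 in YAP1-MAMLD1-dR3R1, which overlapped. These sums were 248.2 to 307 CPM in YAP1-FAM118B and 475.6 to 582.5 in YAP1-TFE3. The secreted antagonists summed to 124 ± 49.9 RPKM in naive, 295 ± 75.8 in YAP1-MAMLD1-dR3R1 tumours, 147 ± 21.4 in YAP1-FAM118B tumours and 32.2 ± 20.4 in YAP1-TFE3. YAP1-TFE3 libraries were the lowest here, with 8.66 to 44.1 RPKM against at least 70.1 elsewhere. Dkk3 alone made up 77.5 to 88.3% of the naive sum and 35.3 to 77.1% of the YAP1-TFE3 sum. The 5 Sfrp and Frzb genes did not separate these 2 groups. They summed to 43.1 to 59.18 CPM in naive and to 63.45, 56.47 and 2.83 CPM in YAP1-TFE3. No test was run on these sums.

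**Figure D2:**
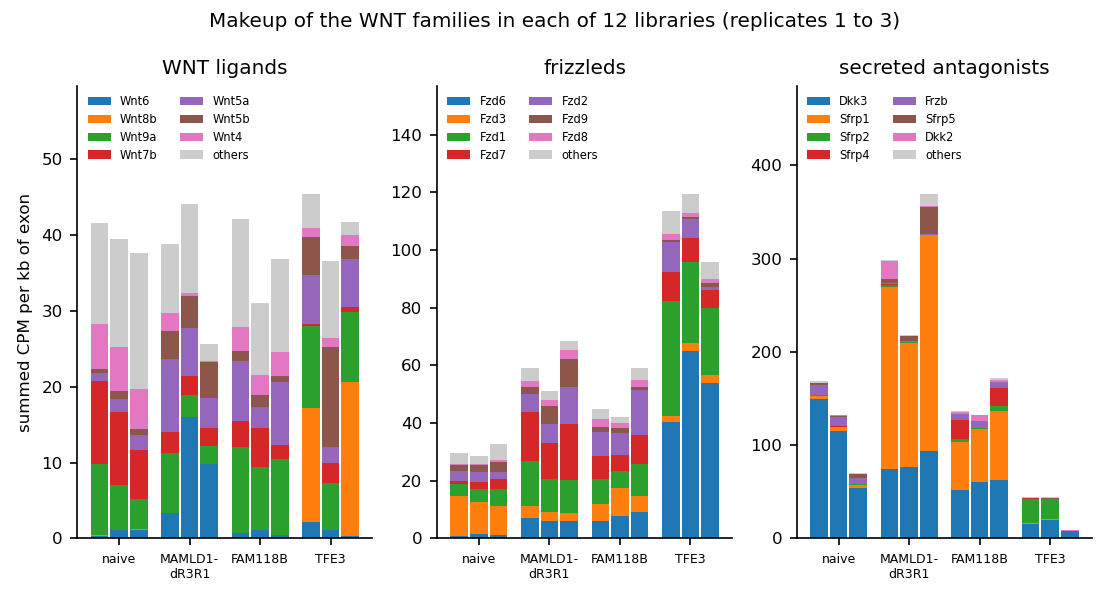
Summed RPKM (y axis, CPM per kb of exon) of WNT ligands, frizzleds and secreted antagonists in each of the 12 libraries, 3 bars per group, with the 7 genes of largest share in any group in colour and the other members in grey. Ligand bars stay between 25.7 and 45.5 RPKM while their colours differ, and frizzled bars are highest in YAP1-TFE3. Antagonist bars, mostly Dkk3 in naive cortex, are lowest in YAP1-TFE3.

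By mean share, the ligand with the largest level per length differed from group to group. In YAP1-MAMLD1-dR3R1 and YAP1-TFE3 it did not lead in every library. Wnt9a and Wnt5a were among the leading ligands of several groups, a description with no test. In naive cortex the largest share of ligand RPKM belonged to Wnt7b (22.5 ± 4.65%, SD, n = 3), with Wnt9a at 16 ± 6.26% and Wnt4 at 14.2 ± 0.33%. YAP1-MAMLD1-dR3R1 tumours had Wnt6 at 27.6 ± 16.6% and Wnt5a at 18.2 ± 5.78%. Wnt6 was at 8.47, 36.3 and 38.1% in replicates 1, 2 and 3, and in replicate 1 Wnt5a led with 24.8%. In YAP1-FAM118B tumours Wnt9a held 27.1 ± 0.13% and Wnt5a 16.8 ± 6.85%. In YAP1-TFE3 tumours the largest mean share was that of Wnt8b (27.3 ± 24.8%), and Wnt9a held 20.9 ± 3.6%. Shares other than that of Wnt9a varied between libraries. Wnt8b was at 33, 0.209 and 48.7% in replicates 1, 2 and 3, and Wnt5b at 10.8, 36 and 4.2%.

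Among 16 ligands tested, 3 were higher and 5 lower in YAP1-MAMLD1-dR3R1 tumours, 1 was higher in YAP1-FAM118B tumours, and 3 were higher and 7 lower in YAP1-TFE3 tumours, with medians of −1.34, −0.09 and −2.17 on the log2 scale. Called ligands were 50, 6.25 and 62.5% of those tested, below the 63.2, 29.7 and 70.6% of all genes. Wnt5a (chromosome 14, 28504750 to 28527448, GRCm38), the prototype of signalling without beta-catenin, was at 8.37, 13.7 and 15.2 CPM in naive libraries. It reached 75.6, 49.1 and 31.2 CPM in YAP1-MAMLD1-dR3R1 tumours, 62.3, 22.2 and 64.6 in YAP1-FAM118B tumours and 51.1, 16.5 and 49.6 in YAP1-TFE3. All 9 tumour libraries lay above the highest naive library, and replicate 2 was the lowest of the YAP1-FAM118B and YAP1-TFE3 groups. In the same order it rose by 2.06 ± 0.54 (SE), 2 ± 0.54 and 1.65 ± 0.54 on the log2 scale (adjusted p by edgeR 0.00755, 0.0195 and 0.0182). The YAP1-FAM118B call ended without naive replicate 1 or 2 or YAP1-FAM118B replicate 1 or 3 (adjusted p 0.054 to 0.0699), and the YAP1-TFE3 call without naive replicate 1 or YAP1-TFE3 replicate 1 or 3 (0.0895 to 0.111). Between fusions Wnt5a differed by 0.06 to 0.41 on the log2 scale in size, with adjusted p of 0.547 to 0.939.

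Wnt5b, a close relative of Wnt5a, was at 1.31, 2.85 and 2.20 CPM in naive cortex and at 3.49, 3.95 and 2.08 CPM in YAP1-FAM118B tumours. It stood at 9.78, 11.2 and 12.7 CPM in YAP1-MAMLD1-dR3R1 and at 13.1, 34.9 and 4.64 CPM in YAP1-TFE3. Both of these groups lay wholly above naive cortex and YAP1-FAM118B. Against naive it rose by 2.40 ± 0.63 and 3.05 ± 0.64 in log2 (edgeR adjusted p = 0.00729 and 0.00176), and the YAP1-TFE3 value was 1.83 without replicate 2. YAP1-TFE3 exceeded YAP1-FAM118B by 2.47 ± 0.62 (edgeR adjusted p = 0.00813, or 0.0621 without YAP1-TFE3 replicate 2).

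Wnt6 (chromosome 1, 74771892 to 74785322), a ligand first described in epithelia, was at 0.739, 2.39 and 2.46 CPM in naive cortex, 7.22, 35.1 and 21.5 in YAP1-MAMLD1-dR3R1 tumours, 1.52, 2.27 and 1.02 in YAP1-FAM118B tumours and 4.77, 2.31 and 0.696 in YAP1-TFE3. Every YAP1-MAMLD1-dR3R1 library lay above every other library. The gene rose against naive by 3.51 ± 0.80 in log2 (edgeR adjusted p = 0.00359; 2.88 without YAP1-MAMLD1-dR3R1 replicate 2). YAP1-FAM118B and YAP1-TFE3 tumours were lower than YAP1-MAMLD1-dR3R1 tumours, with −3.73 ± 0.81 and −3.04 ± 0.78 (edgeR adjusted p = 0.013 and 0.0121). The first of these calls ended without YAP1-FAM118B replicate 1 (0.0501), its value was −3.05 without YAP1-MAMLD1-dR3R1 replicate 2, and the second value was −3.92 without YAP1-TFE3 replicate 1.

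Wnt8b (chromosome 19, 44493472 to 44514273), a ligand of the developing forebrain and hippocampal margin, was at most 0.484 CPM in the 9 libraries of the other groups. In YAP1-TFE3 it was at 52.2 CPM in replicate 1, 0.266 CPM in replicate 2 and 70.7 CPM in replicate 3. So 2 of the 3 YAP1-TFE3 libraries were high and the third lay within the naive range. The YAP1-TFE3 group held 2612 counts against 1 count in the YAP1-FAM118B group, a ratio of 2814 with an exact 95% counting interval of 504.7 to 111200, which covers counting error only. Against naive the fitted log2 fold change was 7.38 ± 1.63 (edgeR adjusted p = 0.00238; 6.51 without YAP1-TFE3 replicate 3 and 8.30 without naive replicate 3). Against YAP1-FAM118B it was 11.01 ± 2.11 (edgeR adjusted p = 0.00197), with 10.11 without YAP1-TFE3 replicate 3 and 12.88 without YAP1-FAM118B replicate 3. Against YAP1-MAMLD1-dR3R1 it was 8.41 ± 1.75 (edgeR adjusted p = 0.00411), with 7.59 without YAP1-TFE3 replicate 3, 7.70 without YAP1-MAMLD1-dR3R1 replicate 2 and 9.51 without its replicate 3. YAP1-TFE3 replicate 2 was also the library with the highest Wnt5b, the highest Wnt7b of its group and a summed level of 7 neuronal markers of 805 CPM, against 25.1 and 43.3 CPM in replicates 1 and 3.

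**Figure D3:**
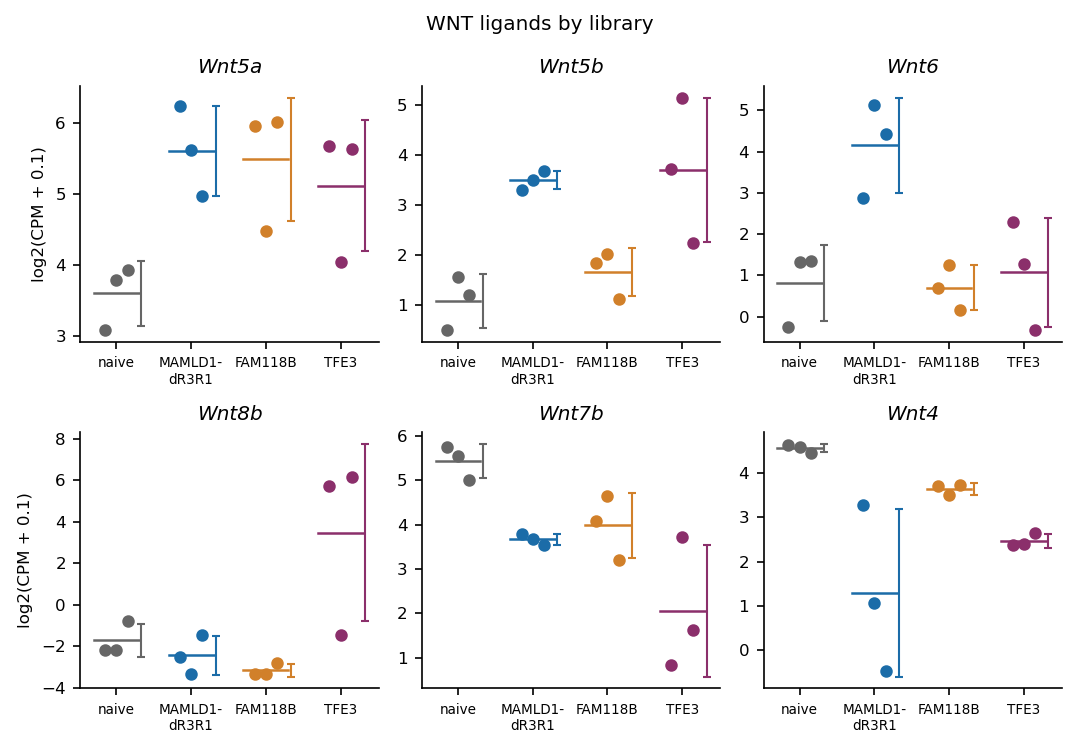
Level of 6 ligands (y axis, log2 of CPM + 0.1) in the 3 libraries of each group (points in replicate order), with the group mean (line) and SD (bar). Wnt5a is above naive cortex in all 9 tumour libraries, Wnt6 stands out in YAP1-MAMLD1-dR3R1, and Wnt8b in 2 of 3 YAP1-TFE3 libraries, while Wnt7b and Wnt4 are highest in naive cortex.

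Several ligands of the naive pool were lower in tumours. Wnt7b, which acts on blood vessels of the brain and on dendrites, was at 53.4, 46.7 and 31.9 CPM in naive, 13.7, 12.6 and 11.6 in YAP1-MAMLD1-dR3R1 tumours, 16.9, 25.1 and 9.13 in YAP1-FAM118B tumours and 1.69, 13.0 and 2.97 in YAP1-TFE3. It fell by 1.8 ± 0.64 on the log2 scale in YAP1-MAMLD1-dR3R1 and by 2.90 ± 0.67 in YAP1-TFE3 (edgeR adjusted p = 0.032 and 0.00323), with −1.37 ± 0.64 in YAP1-FAM118B (0.129). Naive libraries lay above all tumour libraries. The first call ended without naive replicate 1 or 2 or any YAP1-MAMLD1-dR3R1 replicate (0.0647 to 0.0922), and the second value was −4.47 without YAP1-TFE3 replicate 2. Counting on strand is not given in the sources used here, and an exon of AU022754 overlaps Wnt7b on the opposite strand, so their reads cannot be told apart. In all, 8 members overlap an exon of another gene, each on the opposite strand: Wnt7b, Wnt5a, Wnt11, Fzd5, Fzd6, Sfrp2, Rspo3 and Axin2. Except for AU022754, the overlapping genes are not in the count files. Whether their reads were counted with these members is not known.

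Wnt4, a ligand of kidney and gonad development that is also made in brain, was at 24.8, 24.2 and 22.0 CPM in naive and at 0.621 to 13.2 CPM in tumours. The YAP1-MAMLD1-dR3R1 libraries were at 9.67, 1.98 and 0.621 CPM, and those of YAP1-TFE3 at 5.06, 5.14 and 6.13 CPM. It fell by 2.52 ± 0.72 and by 2.12 ± 0.71 on the log2 scale in these groups (edgeR adjusted p = 0.0116 and 0.0212), and the first value was −4.18 without YAP1-MAMLD1-dR3R1 replicate 1. The second call ended without both libraries that held Xist and Ddx3y counts (0.0602). Wnt3, an activator of the beta-catenin branch, was at 2.79, 3.69 and 16.4 CPM in naive and at most 0.579 CPM in YAP1-TFE3. It fell by 5.08 ± 1.36 there (edgeR adjusted p = 0.00688), with −3.84 without naive replicate 3, −5.69 without naive replicate 1 and −7.40 without YAP1-TFE3 replicate 1. The summed level of 7 neuronal markers was also highest in naive, at 5515 to 8416 CPM. It was 49.8 to 979 in YAP1-MAMLD1-dR3R1 tumours, 3045 to 4805 in YAP1-FAM118B tumours and 25.1 to 805 in YAP1-TFE3. Of these markers 5 of 7 were lower in YAP1-MAMLD1-dR3R1 and 6 of 7 in YAP1-TFE3, and no marker was at 0 in a whole group. Within naive, replicate 3 had the highest Wnt3 and the lowest sum, and it also stood apart in Ttr and Tcf7l2, as given above. The share of Wnt3 in ligand RPKM was 2.18 to 14.2% in naive, 0.336 to 4.51% in YAP1-MAMLD1-dR3R1 and 0.983 to 2.03% in YAP1-FAM118B. In YAP1-TFE3 Wnt4 was at 5.06 to 6.13 CPM and the neuronal sum at 25.1 to 805 CPM. The part of these markers in the fall of these ligands was not tested.

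The other ligands were low or varied within groups. Wnt2b was at 4.40 to 8.62 CPM in naive, 0.387 to 1.94 in YAP1-MAMLD1-dR3R1 tumours, 2.14 to 10.5 in YAP1-FAM118B tumours and 0.139 to 2.13 in YAP1-TFE3, and was lower in YAP1-MAMLD1-dR3R1 and YAP1-TFE3 than in naive (edgeR adjusted p = 0.0474 and 0.0258). It was also lower in YAP1-TFE3 than in YAP1-FAM118B (0.0242). Each of these 3 Wnt2b calls ended when single libraries were left out, with adjusted p up to 0.141 for YAP1-MAMLD1-dR3R1 (without its replicate 2), 0.0783 for YAP1-TFE3 (without its replicate 1) and 0.0729 between the fusions (without YAP1-TFE3 replicate 1). Without YAP1-TFE3 replicate 2, the Wnt2b values of that fusion were −4.36 against naive and −4.72 against YAP1-FAM118B. Wnt10a fell by 2.88 ± 1.13 on the log2 scale in YAP1-TFE3 (edgeR adjusted p = 0.0416), from 3.08 to 12.2 CPM in naive to 0.0464 to 1.73 CPM, and this call too ended without single libraries (up to 0.103, without naive replicate 1), with a value of −3.67 without YAP1-TFE3 replicate 2. Wnt11, a ligand of cell movements, was at 7.60, 0.336 and 7.38 CPM in YAP1-FAM118B, and YAP1-TFE3 (at most 0.289 CPM) was lower than that group by a log2 value of −4.99 (edgeR adjusted p = 0.0192), or −5.96 without YAP1-TFE3 replicate 1. Wnt1, Wnt2 and Wnt16, under 5 CPM in every group mean, were called in 1 or more comparisons. Wnt16, for example, had 51 counts over the naive group and 2 over YAP1-MAMLD1-dR3R1, a ratio of 24.8 (exact 95% counting interval 6.52 to 210.2).

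Wnt7a, Wnt9a, Wnt9b and Fzd2 reached 5 CPM in 1 or more groups and passed in none of the 6 comparisons. Wnt9a had group means of 14.5 to 33 CPM, and Wnt7a of 6.94 to 13.9 CPM. Wnt9b was at 14.4 CPM in naive replicate 3 and at most 3.55 CPM in the other 11 libraries, so its naive mean rests on that library. The filter removed Wnt3a, Wnt8a, Wnt10b, Dkk1, Dkk4 and Rspo4. Wnt8a and Dkk4 had no count in any library, Dkk1 had at most 2, Wnt3a at most 6, Rspo4 at most 9 and Wnt10b at most 17 in a library.

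RefSeq promoter sequences, from 250 bases before to 50 bases after a start (GRCm38.p6), were held for 30 of the 47 members, 33 promoters in all. They are shown for Wnt5b, Wnt6 and Wnt8b, the ligands raised in 1 or 2 fusions, and for Fzd7, raised in all 3. Letters of the motifs searched, GGAATG (TEAD, the factors that carry YAP1 to DNA), ATCAAAG (TCF/LEF) and CACGTG (E-box, the core of sites bound by TFE3), are in capitals on either strand.
Wnt5b: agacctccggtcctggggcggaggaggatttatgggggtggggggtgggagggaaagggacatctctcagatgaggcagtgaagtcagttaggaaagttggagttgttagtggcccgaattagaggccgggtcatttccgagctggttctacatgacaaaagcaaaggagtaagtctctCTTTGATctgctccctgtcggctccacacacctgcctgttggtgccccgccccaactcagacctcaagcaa
Wnt6: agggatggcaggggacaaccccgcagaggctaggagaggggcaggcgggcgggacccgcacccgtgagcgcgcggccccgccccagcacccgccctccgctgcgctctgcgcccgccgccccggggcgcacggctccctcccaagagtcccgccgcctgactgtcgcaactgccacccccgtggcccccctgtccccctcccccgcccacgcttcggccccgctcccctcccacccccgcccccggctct
Wnt8b: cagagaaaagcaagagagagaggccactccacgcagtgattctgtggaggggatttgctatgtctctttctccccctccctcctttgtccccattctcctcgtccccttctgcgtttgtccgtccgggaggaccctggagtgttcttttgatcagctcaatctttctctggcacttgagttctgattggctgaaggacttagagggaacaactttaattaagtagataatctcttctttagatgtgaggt
Fzd7: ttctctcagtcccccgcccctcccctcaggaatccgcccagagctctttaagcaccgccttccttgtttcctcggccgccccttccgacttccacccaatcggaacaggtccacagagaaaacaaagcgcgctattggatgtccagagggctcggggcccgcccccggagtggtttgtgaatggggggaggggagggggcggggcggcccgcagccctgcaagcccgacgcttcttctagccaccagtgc
The Wnt5b stretch is the third promoter listed for that gene, chr6:119449387-119449636 on the minus strand, and holds CTTTGAT, the TCF/LEF motif read from the other strand. The Wnt6 stretch is chr1:74771642-74771891, that of Wnt8b chr19:44493222-44493471 and that of Fzd7 chr1:59481897-59482146, all on the plus strand, and they held none of these letters. Over all 33 member promoters the TEAD motif was present in 3.03%, against 14.7% of 32851 promoters in the table. Its only match was in the second promoter listed for Wnt5b, at position 14 after the start, which is not shown. The TCF/LEF motif was in 6.06% against 3.73%, in Wnt5b and Wnt11, and the E-box in 12.1% against 7.15%, in Rspo4, Fzd9, Wif1 and Wnt9a. Matches of different motifs did not overlap. A match is only a match of letters, and no test was run on these shares.

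Of 12 frizzleds and LRP co-receptors, 6 were higher and 1 lower in YAP1-MAMLD1-dR3R1 tumours, 4 were higher in YAP1-FAM118B tumours, and 8 were higher and 3 lower in YAP1-TFE3 tumours, with medians of 1.35, 0.59 and 1.17 on the log2 scale. The called shares of 58.3, 33.3 and 91.7% stood beside 63.2, 29.7 and 70.6% of all genes, which were also called higher more often than lower (34.4 and 28.8%, 21.3 and 8.45%, 40.6 and 30%). Fzd6 (chromosome 15, 39006034 to 39038188), a frizzled known for hair and tissue polarity, was at 3.82, 6.49 and 5.67 CPM in naive cortex. It stood at 33.7, 29.0 and 29.0 CPM in YAP1-MAMLD1-dR3R1 tumours, 28.3, 36.7 and 43.6 in YAP1-FAM118B tumours and 193, 313 and 259 in YAP1-TFE3. Naive, the first 2 tumour groups and YAP1-TFE3 formed levels that did not overlap. Its log2 fold changes against naive were 2.52 ± 0.25, 2.76 ± 0.25 and 5.58 ± 0.29 (edgeR adjusted p = 2.98e-05, 5.75e-05 and 5.01e-07). YAP1-TFE3 exceeded YAP1-MAMLD1-dR3R1 by 3.06 ± 0.25 and YAP1-FAM118B by 2.82 ± 0.25 (2.40e-05 and 3.05e-05), while the latter fusions differed by 0.24 ± 0.24 (0.453). The calls of Fzd6 held under every alternative run. Per length, Fzd6 made up 48.6 ± 11.5% of the summed frizzled level in YAP1-TFE3.

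In place of Fzd6, the largest mean frizzled share belonged to Fzd3 in naive cortex (39.2 ± 8.52% of RPKM), to Fzd7 in YAP1-MAMLD1-dR3R1 (26.8 ± 2.59%) and to Fzd2 in YAP1-FAM118B (20.7 ± 4.76%). Fzd2 led only in replicate 3 of YAP1-FAM118B (26.1%). Fzd1 led in its replicate 1 (19.8% against 18.6% for Fzd2) and Fzd3 in its replicate 2 (23.6% against 17.4%). Fzd3, the receptor needed for growth of major axon tracts, was at 180, 145 and 128 CPM in naive, 55.3, 40.3 and 33.2 in YAP1-MAMLD1-dR3R1 tumours, 75.2, 127 and 70.2 in YAP1-FAM118B tumours and 26.4, 36.0 and 36.6 in YAP1-TFE3. It fell by 1.81 ± 0.28 in YAP1-MAMLD1-dR3R1 and by 2.19 ± 0.28 in YAP1-TFE3 (edgeR adjusted p = 0.000325 and 7.77e-05). The YAP1-FAM118B value was −0.73 ± 0.27 (0.0642), with every library below naive. YAP1-FAM118B exceeded YAP1-MAMLD1-dR3R1 by 1.08 ± 0.27 (0.0201), a call that ended without YAP1-MAMLD1-dR3R1 replicate 2 or 3 or YAP1-FAM118B replicate 2 (0.056 to 0.0657). YAP1-TFE3 was below YAP1-FAM118B by a log2 value of −1.46 ± 0.27 (0.00174). The summed neuronal markers, given with Wnt4, also had their 3 highest values in naive and their next 3 in YAP1-FAM118B, and their part in Fzd3 was not tested.

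Fzd7 (chromosome 1, 59482424 to 59486955), a frizzled of stem and tumour cells, was at 5.46, 10.1 and 15.3 CPM in naive. It was at 76.4, 55.2 and 87.1 CPM in YAP1-MAMLD1-dR3R1 tumours, 36.3, 26.3 and 45.5 in YAP1-FAM118B tumours and 45.0, 38.7 and 28.9 in YAP1-TFE3. No tumour library overlapped naive, and YAP1-MAMLD1-dR3R1 lay above the other fusions. Rises of 2.83 ± 0.38, 1.81 ± 0.36 and 1.87 ± 0.36 on the log2 scale had edgeR adjusted p of 0.000144, 0.00455 and 0.00112, and held under every alternative run. YAP1-FAM118B and YAP1-TFE3 were below YAP1-MAMLD1-dR3R1 by log2 values of −1.02 ± 0.35 and −0.96 ± 0.35, which did not pass (0.057 and 0.0535).

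Fzd1, a relative of Fzd7, was at 16.3, 18.7 and 25.4 CPM in naive, 64.9, 48.5 and 48.7 in YAP1-MAMLD1-dR3R1 tumours, 37.2, 23.8 and 47.7 in YAP1-FAM118B tumours and 169, 117 and 96.8 in YAP1-TFE3. YAP1-TFE3 lay above all other libraries. It rose by 1.43 ± 0.29 in YAP1-MAMLD1-dR3R1 and by 2.66 ± 0.31 in YAP1-TFE3 (edgeR adjusted p = 0.00204 and 4.15e-05), with 0.85 ± 0.29 in YAP1-FAM118B (0.051). The YAP1-TFE3 excess over YAP1-FAM118B was 1.82 ± 0.30 (0.000835). Over YAP1-MAMLD1-dR3R1 it was 1.24 ± 0.29 (0.00781), and that call ended without YAP1-MAMLD1-dR3R1 replicate 2 or 3 or YAP1-TFE3 replicate 1 (0.0617 to 0.0753).

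Fzd8, a frizzled whose ligand-binding domain has been crystallised with a WNT protein, was at 3.74, 3.90 and 6.07 CPM in naive and rose to 14.4 ± 3.07, 14.1 ± 3.29 and 10.1 ± 2.51 CPM (SD, n = 3) in the tumours, in the order of the fusions above. Its log2 fold changes were 1.66 ± 0.29, 1.62 ± 0.29 and 1.15 ± 0.29 (edgeR adjusted p = 0.000803, 0.00247 and 0.00505), and the last call ended without naive replicate 1 (0.0581) or YAP1-TFE3 replicate 1 (0.0554). Fzd4, the receptor of norrin in retinal vessels, was at 8.50, 9.05 and 12.1 CPM in naive, at 7.05 to 13.7 CPM in the first 2 fusions and at 22.0, 24.3 and 21 CPM in YAP1-TFE3. YAP1-TFE3 libraries did not overlap any other. Its rise of 1.19 ± 0.29 against naive (0.00413) ended without naive replicate 1 (0.0544), the excess over YAP1-MAMLD1-dR3R1 of 1.27 ± 0.29 (0.00653) without replicate 2 or 3 of that group (0.0646 and 0.0569), and the excess over YAP1-FAM118B of 1.28 ± 0.29 (0.0047) without YAP1-TFE3 replicate 2 (0.0549).

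Fzd5, a frizzled of eye and gut development, was at 7.84, 5.11 and 7.65 CPM in naive, 11.1, 9.04 and 6.43 in YAP1-MAMLD1-dR3R1 tumours, 10.3, 3.19 and 12.6 in YAP1-FAM118B tumours and 30.7, 16.5 and 16.8 in YAP1-TFE3. The YAP1-TFE3 libraries were again the highest. It rose by 1.63 ± 0.47 in YAP1-TFE3 (edgeR adjusted p = 0.0102, or 0.0822 without YAP1-TFE3 replicate 1) and exceeded YAP1-FAM118B by 1.30 ± 0.47 (0.0392). The latter call ended with RLE, upper-quartile or no factors, under both other filters and without any of 9 single libraries, down to 0.69 without YAP1-TFE3 replicate 1 (0.304).

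Fzd9 went opposite ways. It was at 4.52, 5.44 and 7.65 CPM in naive, 6.06, 14.5 and 21.9 in YAP1-MAMLD1-dR3R1 tumours, 3.74, 4.41 and 2.54 in YAP1-FAM118B tumours and 1.11, 1.06 and 2.83 in YAP1-TFE3. It was higher in YAP1-MAMLD1-dR3R1 by 1.27 ± 0.51 (edgeR adjusted p = 0.04995), with libraries that overlapped naive, and this call ended under RLE factors (0.0565) and without single libraries, up to 0.198 without YAP1-MAMLD1-dR3R1 replicate 3. In YAP1-TFE3 it fell by 1.81 ± 0.53 (0.0108; −2.58 without YAP1-TFE3 replicate 3). The direct difference of YAP1-TFE3 from YAP1-MAMLD1-dR3R1 was −3.08 ± 0.55 (0.00181; −3.81 without YAP1-TFE3 replicate 3), and that of YAP1-FAM118B was −1.99 ± 0.52 (0.0235), which ended without single libraries of either group except YAP1-MAMLD1-dR3R1 replicate 1 (0.0557 to 0.0867). Fzd10 was under 5 CPM in every group mean and lower in YAP1-TFE3 than in naive (0.024). Fzd2 was at 8.66 to 13.0 CPM in naive, 23.3 to 48.1 in YAP1-MAMLD1-dR3R1 tumours, 26.8 to 56.5 in YAP1-FAM118B tumours and 4.32 to 38.3 in YAP1-TFE3, and did not pass (0.0649, 0.0672 and 0.193 against naive).

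**Figure D4:**
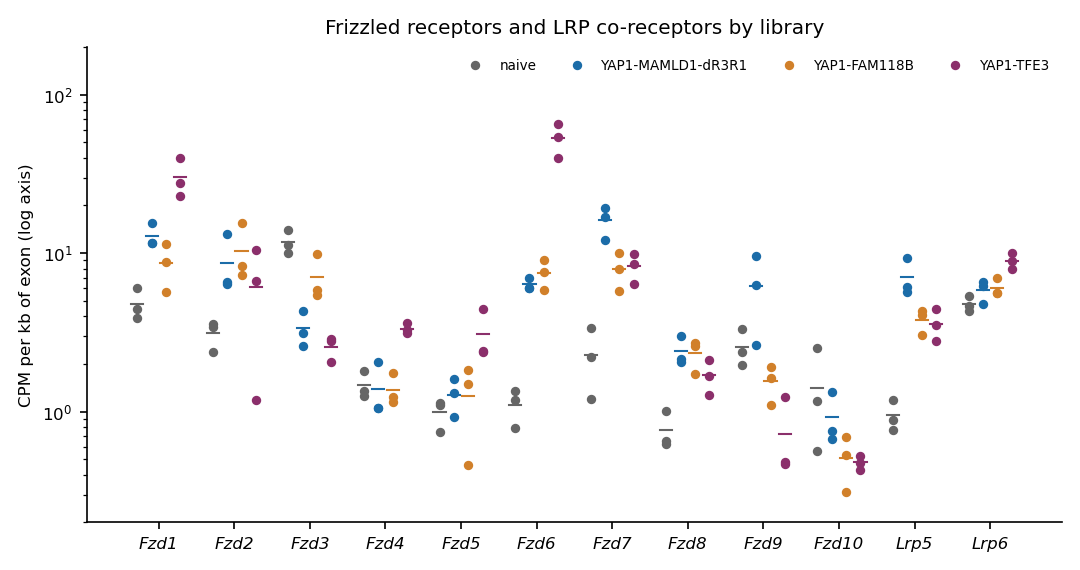
RPKM (y axis, CPM per kb of exon, log axis) of the 10 frizzleds and of Lrp5 and Lrp6 in each library (points) with the group mean (line), coloured by group. Fzd6 and Fzd1 are highest in YAP1-TFE3, Fzd3 in naive cortex, and Lrp5 is higher in all 9 tumour libraries than in any naive library.

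The co-receptors rose to different extents. Lrp5 was at 7.51, 8.63 and 11.6 CPM in naive, 59.6, 55.1 and 90.5 in YAP1-MAMLD1-dR3R1 tumours, 39.6, 29.6 and 42.3 in YAP1-FAM118B tumours and 27.2, 34.1 and 43.5 in YAP1-TFE3. All tumour libraries lay above naive. The rises of 2.89 ± 0.27, 2.01 ± 0.27 and 1.92 ± 0.26 (edgeR adjusted p = 2.31e-05, 0.000405 and 0.000128) held under every alternative run. YAP1-FAM118B was below YAP1-MAMLD1-dR3R1 by a log2 value of −0.88 ± 0.26 (0.0326), and that call ended without naive replicate 1, YAP1-TFE3 replicate 2, YAP1-MAMLD1-dR3R1 replicate 2 or 3 or YAP1-FAM118B replicate 1 or 2 (0.054 to 0.17). YAP1-TFE3 was below it by −0.97 ± 0.26 (0.0135). Lrp6, the other co-receptor, was more abundant in naive, at 63.1, 59.1 and 73.7 CPM. It was at 65.8 to 90.0 CPM in YAP1-MAMLD1-dR3R1 tumours, 76.3 to 94.9 in YAP1-FAM118B tumours and 108 to 136 in YAP1-TFE3, where it rose by 0.90 ± 0.16 (0.000592). The excesses of YAP1-TFE3 over the other fusions, 0.61 ± 0.16 and 0.57 ± 0.16 (0.0124 and 0.0133), ended with library size only (0.0647 and 0.0963) and without single libraries, with values down to 0.34 (0.177, without YAP1-MAMLD1-dR3R1 replicate 2) and 0.25 (0.321, without YAP1-TFE3 replicate 1).

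Of 8 secreted antagonists tested, 3 were higher and 1 lower in YAP1-MAMLD1-dR3R1 tumours, 2 higher and 1 lower in YAP1-FAM118B tumours, and 1 higher and 3 lower in YAP1-TFE3 tumours, with medians of 1.22, 0.68 and −2.08 on the log2 scale. These were 50, 37.5 and 50% of the antagonists, beside 63.2, 29.7 and 70.6% of all genes, where calls also went both ways. YAP1-TFE3 was lower than YAP1-MAMLD1-dR3R1 in 6 of 8, where 39.5% of all genes were called and 16.9% were lower. Of these calls, those of Dkk2, Frzb and Wif1 ended with only the 2 groups compared (edgeR adjusted p = 0.128, 0.0781 and 0.0566). Sfrp1 (chromosome 8, 23411502 to 23449632), a decoy that binds WNT proteins, was at 18.4, 15.9 and 11.79 CPM in naive cortex. It reached 852, 585 and 1010 CPM in YAP1-MAMLD1-dR3R1 tumours and 224, 248 and 327 CPM in YAP1-FAM118B tumours, but 3.13, 5.05 and 1.72 CPM in YAP1-TFE3. The 4 groups did not overlap. Sfrp1 was the only member called in all 6 comparisons. It rose 53.1-fold in YAP1-MAMLD1-dR3R1 tumours and 17.3-fold in YAP1-FAM118B tumours, with log2 fold changes of 5.73 ± 0.43 and 4.12 ± 0.40 (edgeR adjusted p = 7.78e-06 and 7.41e-05). In YAP1-TFE3 it fell by 2.21 ± 0.37 (0.000454; −2.89 without YAP1-TFE3 replicate 2). YAP1-TFE3 was below YAP1-MAMLD1-dR3R1 by a log2 value of −7.94 ± 0.47 (7.51e-06), 246-fold, and below YAP1-FAM118B by −6.33 ± 0.44 (9.66e-06). Without YAP1-TFE3 replicate 2 these were −8.59 and −7.07. YAP1-FAM118B was below YAP1-MAMLD1-dR3R1 by −1.62 ± 0.36 (0.0136), which ended without YAP1-MAMLD1-dR3R1 replicate 3 (0.0617) or YAP1-FAM118B replicate 1 (0.0536). The summed level of astrocyte markers was also highest in YAP1-MAMLD1-dR3R1: 5 genes summed to 1267 to 1493 CPM in naive, 3626 to 5658 in YAP1-MAMLD1-dR3R1 tumours, 637 to 2151 in YAP1-FAM118B tumours and 860 to 2207 in YAP1-TFE3 tumours, with 1 of 5, Gfap, called higher in the first fusion and a median log2 fold change of 0.21 there. In YAP1-TFE3, 3 of 5 were lower (Aqp4, Slc1a3 and Gja1) and 1 higher (Aldh1l1), with a median of −1.63. None of the 5 was at 0 in a whole group, and their part in Sfrp1 was not tested.

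**Figure D5:**
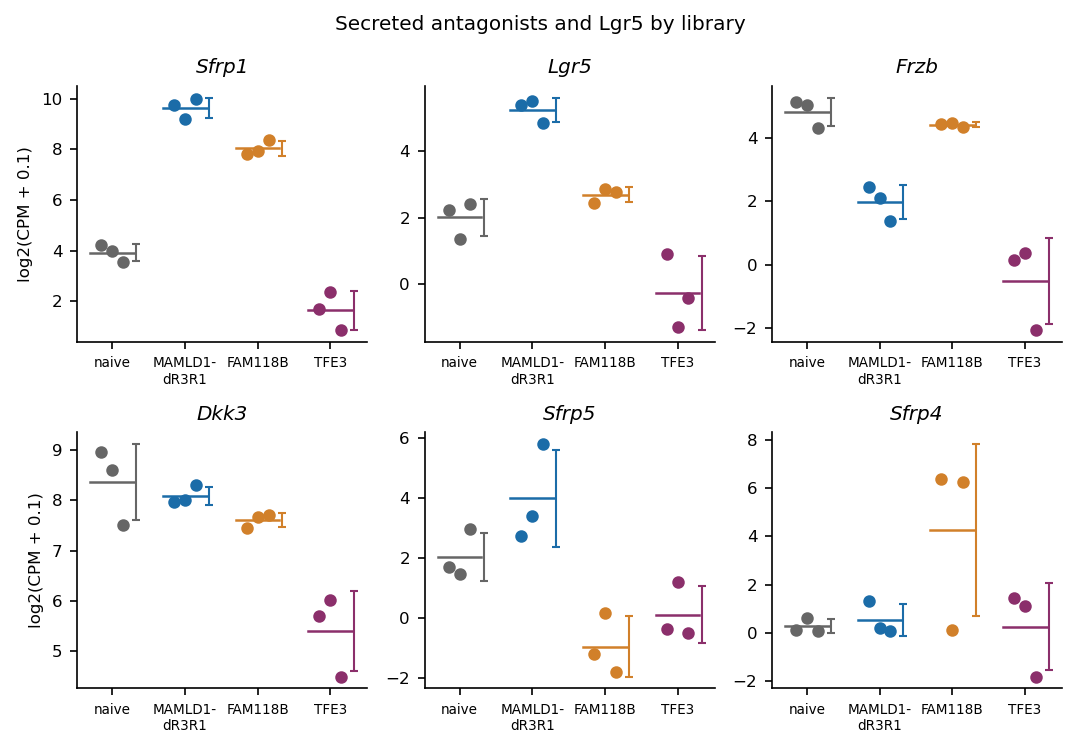
Level of 5 antagonists and of Lgr5 (y axis, log2 of CPM + 0.1) in the 3 libraries of each group (points in replicate order), with the group mean (line) and SD (bar). Sfrp1 and Lgr5 are highest in YAP1-MAMLD1-dR3R1 and lowest in YAP1-TFE3, Dkk3 and Frzb are lowest in YAP1-TFE3, and Sfrp4 and Sfrp5 vary within a group.

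Dkk3, a Dickkopf-family protein that unlike its relatives is not a clear LRP blocker and is made by neurons, held 84.2 ± 5.89% of the antagonist RPKM in naive cortex. Its libraries were at 501, 387 and 182 CPM in naive, 251, 256 and 315 in YAP1-MAMLD1-dR3R1 tumours, 174, 204 and 209 in YAP1-FAM118B tumours and 52.0, 64.4 and 22.4 in YAP1-TFE3. The YAP1-TFE3 libraries lay below all others. It fell by 2.95 ± 0.43 in YAP1-TFE3 against naive (edgeR adjusted p = 0.000183), and was lower there than in YAP1-MAMLD1-dR3R1 (−2.56 ± 0.42, 0.00119) and YAP1-FAM118B (−2.08 ± 0.42, 0.00246; −2.68 without YAP1-TFE3 replicate 2). The other fusions had −0.38 ± 0.40 and −0.87 ± 0.40 against naive (0.422 and 0.129).

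Frzb, also called Sfrp3, was at 34.9, 32.8 and 19.8 CPM in naive and at 21.6, 22.2 and 20.3 CPM in YAP1-FAM118B. It was lower, at 5.32, 4.25 and 2.53 CPM, in YAP1-MAMLD1-dR3R1 and, at 1.01, 1.2 and 0.139 CPM, in YAP1-TFE3. Naive and YAP1-FAM118B overlapped, and both other groups lay apart below them. The gene fell by 2.85 ± 0.53 and by 5.21 ± 0.61 (edgeR adjusted p = 0.00112 and 4.47e-05), with −0.45 ± 0.49 in YAP1-FAM118B (0.507). YAP1-TFE3 was below YAP1-MAMLD1-dR3R1 by −2.36 ± 0.56 (0.00782) and below YAP1-FAM118B by −4.76 ± 0.60 (0.000194), and YAP1-FAM118B was above YAP1-MAMLD1-dR3R1 by 2.40 ± 0.52 (0.0131). Without YAP1-TFE3 replicate 2 the YAP1-TFE3 values were −5.88 against naive, −3.01 and −5.50. The call between YAP1-FAM118B and YAP1-MAMLD1-dR3R1 ended without both libraries that held Xist and Ddx3y counts (0.064). The summed neuronal markers, given with Wnt4, were also far lower in YAP1-TFE3 than in naive, and their part in Dkk3 and Frzb was not tested.

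Other antagonists varied widely within a group. Sfrp4 was at 82.4 and 77.3 CPM in YAP1-FAM118B replicates 1 and 3, at 1.01 CPM in replicate 2 and at 0.186 to 2.65 CPM in the other 9 libraries. It rose by 5.57 ± 1.36 against naive (edgeR adjusted p = 0.0125), which ended without naive replicate 1 or 3 (0.0544 and 0.0503). It also exceeded YAP1-MAMLD1-dR3R1 by 5.16 ± 1.33 (0.0223) and YAP1-TFE3 (a log2 value of −5.03 ± 1.32 for YAP1-TFE3 minus YAP1-FAM118B, 0.01; −5.76 without YAP1-TFE3 replicate 1), and the former ended without YAP1-MAMLD1-dR3R1 replicate 2 or 3 or YAP1-FAM118B replicate 1 (0.0607 to 0.0812). The same 2 libraries held the highest osteoclast and fibroblast markers: 4 osteoclast genes summed to 4222, 46.5 and 6502 CPM in YAP1-FAM118B replicates 1, 2 and 3, and to 9.34 to 17.4 in naive, 25.8 to 82.3 in YAP1-MAMLD1-dR3R1 and 12.3 to 35.4 in YAP1-TFE3. Of these, 3 of 4 were higher in YAP1-FAM118B. The 6 fibroblast and meningeal genes summed to 13650, 3190 and 17930 CPM in YAP1-FAM118B, 106 to 172 in naive, 3898 to 5508 in YAP1-MAMLD1-dR3R1 and 400.3 to 1668 in YAP1-TFE3, with 3 of 6 called higher in YAP1-FAM118B. No marker of either list was at 0 in a whole group. Wnt11, described above, was likewise high in those 2 libraries only, and the part of these cells in either gene was not tested.

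Sfrp5 was at 6.56, 10.5 and 55.3 CPM in YAP1-MAMLD1-dR3R1 tumours, 3.16, 2.64 and 7.61 in naive, 0.328, 1.01 and 0.185 in YAP1-FAM118B tumours and 0.675, 2.17 and 0.604 in YAP1-TFE3. It was higher in YAP1-MAMLD1-dR3R1 by 2.43 ± 0.91 (edgeR adjusted p = 0.0376), a value of 0.92 without replicate 3 of that group (0.332), 3.05 without naive replicate 3 and no longer called without naive replicate 1 or 2 (0.121 and 0.115). In YAP1-FAM118B it fell by 3.12 ± 0.98 (0.0376), a call that ended without any naive replicate or YAP1-FAM118B replicate 1 or 3 (0.052 to 0.133) and was −4.08 without YAP1-FAM118B replicate 2. Both fusions were lower than YAP1-MAMLD1-dR3R1, YAP1-FAM118B by −5.55 ± 1.07 (0.00918) and YAP1-TFE3 by −4.38 ± 1.00 (0.00675). The first was −4.01 without YAP1-MAMLD1-dR3R1 replicate 3 and −6.51 without YAP1-FAM118B replicate 2. The second was −3.02 without YAP1-MAMLD1-dR3R1 replicate 3 and −5.40 without YAP1-TFE3 replicate 2. Wif1, which binds WNT proteins directly, was at 2.02, 1.93 and 32.1 CPM in YAP1-MAMLD1-dR3R1 and at 0.371 to 0.798 CPM in YAP1-TFE3. It was at 2.09 to 3.86 CPM in naive and 0.714 to 3.46 CPM in YAP1-FAM118B. The difference of YAP1-TFE3 from YAP1-MAMLD1-dR3R1, −4.39 ± 1.15 (0.013), was −1.96 without YAP1-MAMLD1-dR3R1 replicate 3 and −4.99 without its replicate 2.

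Dkk2, a Dickkopf that binds LRP co-receptors, was at 73.1, 1.02 and 5.37 CPM in YAP1-MAMLD1-dR3R1 tumours, 9.36 to 24 in YAP1-FAM118B tumours, 0.704 to 1.48 in naive and 0.289 to 3.44 in YAP1-TFE3. Every YAP1-FAM118B library lay above naive, but the gene was not called in that fusion. YAP1-MAMLD1-dR3R1 replicate 2 lay within the naive range. The rise of 4.58 ± 1.47 in YAP1-MAMLD1-dR3R1 (edgeR adjusted p = 0.0204) was 1.53 without replicate 1 of that group (0.22) and ended without any naive replicate (0.0536 to 0.0667). YAP1-TFE3 was lower than YAP1-MAMLD1-dR3R1 by −4.27 ± 1.45 (0.0402), with −1.21 without YAP1-MAMLD1-dR3R1 replicate 1 (0.383), −6.38 without YAP1-TFE3 replicate 3, −5.05 and −4.97 without YAP1-MAMLD1-dR3R1 replicates 2 and 3, and adjusted p of 0.0533 to 0.0985 without several other libraries. Sfrp2 was at 56.0, 46.0 and 0.186 CPM in YAP1-TFE3, so 2 libraries were high and the third was the lowest of the series. It was at 1.77 to 2.90 CPM in naive, and the difference of 3.98 ± 1.53 (0.0384) ended without YAP1-TFE3 replicate 1 (3.33, 0.103) or 2 and without any naive replicate (up to 0.121).

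Lgr5 (chromosome 10, 115450311 to 115587780), the R-spondin receptor that marks stem cells of gut and hair, was like Sfrp1 higher in YAP1-MAMLD1-dR3R1 and lower in YAP1-TFE3 than in naive, but was not called in YAP1-FAM118B. It was at 4.6, 2.47 and 5.23 CPM in naive, 41.2, 45.1 and 28.2 in YAP1-MAMLD1-dR3R1 tumours, 5.26, 7.09 and 6.69 in YAP1-FAM118B tumours and 1.78, 0.31 and 0.65 in YAP1-TFE3. The 4 groups did not overlap. It rose by 3.22 ± 0.52 in YAP1-MAMLD1-dR3R1 and fell by 2.17 ± 0.53 in YAP1-TFE3 (edgeR adjusted p = 0.000473 and 0.00419), with 0.63 ± 0.49 in YAP1-FAM118B (0.347). YAP1-TFE3 was below YAP1-MAMLD1-dR3R1 by −5.38 ± 0.59 (0.000114), 41.7-fold, and below YAP1-FAM118B by −2.80 ± 0.53 (0.00197). Without YAP1-TFE3 replicate 1 the YAP1-TFE3 values were −3.27 against naive, −6.47 and −3.96. YAP1-FAM118B was below YAP1-MAMLD1-dR3R1 by −2.59 ± 0.51 (0.00941). All calls of Lgr5 held under every alternative run.

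The R-spondins varied more between libraries. Rspo1 was at 8.37, 8.96 and 6.33 CPM in naive, 8.39, 14.4 and 67.4 in YAP1-MAMLD1-dR3R1 tumours, 14.2, 12.6 and 7.89 in YAP1-FAM118B tumours and 27.7, 13.0 and 126 in YAP1-TFE3. Replicate 3 was far above the others in 2 fusions. The YAP1-TFE3 rise of 2.81 ± 0.92 (edgeR adjusted p = 0.0192) was 1.19 without replicate 3 of that group (0.171) and ended without naive replicate 1 or 3 (0.0628 and 0.0619). Rspo2 was at 27.3, 17.9 and 6.11 CPM in naive and at 0.241, 2.44 and 0 CPM in YAP1-TFE3, lower by −4.24 ± 1.55 (0.0308). That value was −7.31 without YAP1-TFE3 replicate 2, and the call ended without YAP1-TFE3 replicate 1 or 3 or naive replicate 1 or 2 (0.0571 to 0.0847). Rspo3 was at 9.81 to 17.3 CPM in naive and at 4.54, 1.89 and 0.355 CPM in YAP1-MAMLD1-dR3R1, lower by −2.55 ± 0.96 (0.0397), with −3.57 without replicate 1 of that group and adjusted p of 0.0518 to 0.112 without any of 9 other single libraries.

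Axin2, the feedback inhibitor that beta-catenin signalling induces in many tissues, moved little. It was at 31.6, 27.2 and 29.3 CPM in naive, 19.3, 31.2 and 29.2 in YAP1-MAMLD1-dR3R1 tumours, 17.6, 21.9 and 14.5 in YAP1-FAM118B tumours and 33.9, 23.0 and 25.4 in YAP1-TFE3. All YAP1-FAM118B libraries lay below the naive range, as did YAP1-MAMLD1-dR3R1 replicate 1 and YAP1-TFE3 replicates 2 and 3, while YAP1-TFE3 replicate 1 lay above it. The Axin2 value in YAP1-FAM118B was −0.70 ± 0.23 (edgeR adjusted p = 0.0396), and the call ended without any naive replicate (0.0684 to 0.115), without YAP1-MAMLD1-dR3R1 replicate 3 (0.0511) or without YAP1-FAM118B replicate 1 or 3 (0.113 and 0.149). The other fusions had −0.14 ± 0.22 (0.593) and −0.10 ± 0.22 (0.715). YAP1-TFE3 exceeded YAP1-FAM118B by 0.61 ± 0.23 (0.0437), a call that ended with DESeq2 (0.0511), with each other scaling and when any of 10 single libraries was left out, with a value of 0.20 without YAP1-TFE3 replicate 1 (0.487).

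Other genes of the pathway were counted in lists, to be read against the 63.2, 29.7 and 70.6% of all genes called in the same 3 comparisons with naive. Of 17 relay and destruction-complex genes, 10 were called in YAP1-MAMLD1-dR3R1 (2 higher), 6 in YAP1-FAM118B (2 higher) and 14 in YAP1-TFE3 (6 higher), or 58.8, 35.3 and 82.4%, with median log2 fold changes of −0.18, −0.07 and −0.34. Ctnnb1, which encodes beta-catenin, was at 545, 572 and 685 CPM in naive, 597 to 682 in YAP1-MAMLD1-dR3R1 tumours, 536 to 612 in YAP1-FAM118B tumours and 2492, 2410 and 2251 in YAP1-TFE3 tumours. It rose in YAP1-TFE3, by 1.99 ± 0.15 (edgeR adjusted p = 3.40e-06), with 0.08 ± 0.14 and −0.09 ± 0.14 in the other fusions. Gsk3b, a kinase that marks beta-catenin for destruction, fell by 1.14 ± 0.16, by 0.45 ± 0.15 and by 0.95 ± 0.15 (0.000165, 0.0484 and 0.000362). Axin1, the scaffold of the destruction complex, rose by 0.94 ± 0.13, 0.55 ± 0.13 and 0.77 ± 0.13 (0.000164, 0.00995 and 0.000426).

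Feedback and target genes numbered 17, with 10, 6 and 11 called (9, 6 and 6 higher), or 58.8, 35.3 and 64.7% beside 63.2, 29.7 and 70.6% of all genes, and medians of 1.12, 0.22 and 0.49. Nkd2, a feedback inhibitor that binds Dishevelled, was at 3.90, 7.92 and 7.17 CPM in naive, 35.3, 62.6 and 113 in YAP1-MAMLD1-dR3R1 tumours, 99.3, 44.2 and 176 in YAP1-FAM118B tumours and 1.35, 2.26 and 0.789 in YAP1-TFE3. Like Sfrp1 it rose in the first 2 fusions (3.47 ± 0.62 and 4.07 ± 0.63, edgeR adjusted p = 0.000842 and 0.00107) and fell in YAP1-TFE3 by 2.10 ± 0.62 (0.0116). Apcdd1, a WNT inhibitor at the cell surface, was higher in YAP1-MAMLD1-dR3R1 (2.36 ± 0.37, 0.000388) and lower in YAP1-TFE3 (−1.04 ± 0.36, 0.0239). Ccnd1, the gene of cyclin D1, was at 65.4 to 69.8 CPM in naive and at 569, 1003 and 1095 CPM in YAP1-MAMLD1-dR3R1 tumours, 167, 198 and 149 in YAP1-FAM118B tumours and 3112, 3789 and 3532 in YAP1-TFE3 tumours. Ccnd1 and Cd44 answer to many pathways besides WNT, and both were higher in all 3 fusions, Ccnd1 by 3.72, 1.34 and 5.69 and Cd44 by 5.26, 4.79 and 5.49 on the log2 scale.

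Of 13 TCF/LEF factors and cofactors, 5, 2 and 11 were called (3, 2 and 4 higher), or 38.5, 15.4 and 84.6%, with medians of −0.36, −0.45 and −0.92. Tcf7, a TCF factor also abundant in T cells, rose by 3.94 ± 0.37, 2.09 ± 0.35 and 1.82 ± 0.35 (edgeR adjusted p = 2.32e-05, 0.00164 and 0.000976). The T cell markers, 3 genes, summed to 5.94 to 68.7 CPM in YAP1-MAMLD1-dR3R1 tumours, at most 0.308 in naive, 0.965 to 3 in YAP1-FAM118B tumours and 0.222 to 27.7 in YAP1-TFE3, with 3 of 3 higher in the first fusion and 2 of 3 in the last. Their part in Tcf7 was not tested. Lef1 fell in YAP1-TFE3 by 2.34 ± 0.61 (0.00595), with naive replicate 3 at 22.0 CPM against 4.68 and 4.69.

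Genes that process, carry or bind ligands were 12 in number, with 7, 4 and 8 called (6, 4 and 7 higher), or 58.3, 33.3 and 66.7%, and medians of 1.12, 0.65 and 2.51. Wls, the carrier that brings WNT proteins to the cell surface, was at 50.3 to 60.2 CPM in naive, 114 to 191 in YAP1-MAMLD1-dR3R1 tumours, 62.3 to 91.1 in YAP1-FAM118B tumours and 421, 376 and 184 in YAP1-TFE3, where it rose by 2.54 ± 0.32 (edgeR adjusted p = 7.27e-05). The glypican gene Gpc4 rose in all 3 fusions, by 3.14 ± 0.43, 3.65 ± 0.44 and 2.98 ± 0.42 (0.000165, 0.000227 and 0.000156). Of 16 other receptors and surface modulators tested, 8, 6 and 9 were called (7, 6 and 8 higher), or 50, 37.5 and 56.2%, with medians of 1.16, 1.17 and 1. Ryk, a receptor for WNT5A, rose from 30.5 to 33.4 CPM in naive by 1.91 ± 0.26, 1.67 ± 0.25 and 1.96 ± 0.26 (0.000151, 0.000918 and 9.20e-05). Ror1 rose in YAP1-FAM118B (3.11 ± 0.67, 0.00648) and YAP1-TFE3 (3.44 ± 0.67, 0.00116), with 1.27 ± 0.64 in YAP1-MAMLD1-dR3R1 (0.104). Kremen1, which cooperates with Dickkopf proteins, rose by 1.12 ± 0.31, 1.91 ± 0.32 and 3.74 ± 0.34 (0.01, 0.00155 and 1.06e-05). Sostdc1, a further secreted inhibitor, was at 0.903, 1.34 and 9.46 CPM in naive and at 75.2, 193 and 199 CPM in YAP1-MAMLD1-dR3R1 tumours, 54.0, 137 and 81.3 in YAP1-FAM118B tumours and 16.7, 31.2 and 17.2 in YAP1-TFE3. All 9 tumour libraries exceeded naive.

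Planar polarity genes, which act downstream of WNT5A-type signals, were called in 6, 1 and 13 of 15 (1, 1 and 6 higher), or 40, 6.67 and 86.7% beside 63.2, 29.7 and 70.6% of all genes, with medians of −0.43, −0.48 and −0.73. Prickle1 and Prickle2, core polarity genes also expressed in neurons, fell by 2.25 ± 0.50 and by 2.63 ± 0.46 in YAP1-MAMLD1-dR3R1 (edgeR adjusted p = 0.00308 and 0.000812) and by 4.22 ± 0.55 and by 3.91 ± 0.49 in YAP1-TFE3 (8.75e-05 and 7.21e-05), beside the fall of the neuronal markers given above. Vangl1, a membrane protein of the same core, rose by 2.24 ± 0.42 in YAP1-TFE3 (0.000824). Dact1, which binds Dishevelled, rose by 1.78 ± 0.22 in YAP1-FAM118B and 2 ± 0.22 in YAP1-TFE3 (0.000242 and 2.91e-05).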

How the data were processed

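The authors deposited unnormalised counts per gene symbol for 12 mouse libraries, made with HTSeq on mm10, per the submitters' processing notes. Not given in the sources used here: aligner, annotation and strand setting. Groups and replicate numbers came from the labels. Genes were kept by filterByExpr (minimum count 10), scaled with TMM factors and fitted over all libraries with the quasi-likelihood test of edgeR 4.0.16 (limma 3.58.1, R 4.3.3). Benjamini-Hochberg adjustment ran over all genes tested in each of 6 contrasts, at 0.05. SE is the log2 fold change over the square root of F. CPM used TMM-scaled library sizes, and RPKM divided it by the GENCODE M21 exon length (GRCm38). Members with a mean of 5 CPM or more in 1 or more groups and a call in 1 or more contrasts were named, and up to 8 per pathway list by the same rule. The 24 of smallest adjusted p were given with library values, for some as ranges or means or for part of the groups. Library values of Axin2, Dkk2, Rspo1 to Rspo3, Sfrp2, Wnt11 and Wnt9b, and the E-box motif, were added after values were seen. The members and lists were chosen with earlier results of these data known. The code was tested on simulated data. Same-numbered libraries did not deviate together (median r = 0.038), so numbers were not treated as pairs. Alternatives were DESeq2 1.42.0, RLE, upper-quartile or no factors, other filters, the groups compared alone, a replicate block, glmTreat against 1.5-fold, and libraries left out.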

Additional observations from a re-analysis of the deposited data

Results flagged for a closer look

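Sfrp1, Lgr5, Fzd9 and Sfrp5 were called in opposite directions against naive in 2 fusions, and the direct edgeR test between those fusions also passed. The fusions share the naive libraries, while the direct test does not use them for its difference. Sfrp1 differed by −7.94 on the log2 scale between YAP1-TFE3 and YAP1-MAMLD1-dR3R1 and by −6.33 between YAP1-TFE3 and YAP1-FAM118B. For Lgr5 the difference of YAP1-TFE3 from YAP1-MAMLD1-dR3R1 was −5.38, and for Fzd9 it was −3.08. Sfrp5 differed by −5.55 between YAP1-FAM118B and YAP1-MAMLD1-dR3R1, with replicate 3 of the latter far above the other libraries.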

How the results depend on the processing

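Of 93 calls of named members, 52 held under every alternative and 58 when each library was left out in turn; 41 ended under 1 or more, and no named member reversed. Counts of members called in YAP1-FAM118B against naive moved from 9 to 14 with DESeq2 and to 14 with only the compared groups; YAP1-FAM118B against YAP1-MAMLD1-dR3R1 moved from 11 to 5 with glmTreat and to 4 without both libraries holding Xist and Ddx3y counts. Leaving out single libraries gave 14 to 24 for YAP1-MAMLD1-dR3R1 against naive, 5 to 11 for YAP1-FAM118B, 21 to 30 for YAP1-TFE3, 5 to 15 for YAP1-FAM118B against YAP1-MAMLD1-dR3R1, 13 to 18 for YAP1-TFE3 against YAP1-MAMLD1-dR3R1, and 14 to 22 for it against YAP1-FAM118B. With the replicate number as a block the counts were 19, 8, 26, 13, 18 and 19 in the order of the report, where same-numbered libraries correlated at −0.111 to 0.324 and 4 of 12 libraries correlated best with their own number. The median of all genes in YAP1-TFE3 against naive moved from 0.23 to 0.07 with RLE factors and 0.03 with library size only, and with TMM kept it also moved, to 0.04 at 1 CPM in 3 libraries, 0.06 without a filter, 0.003 with only the compared groups, 0.03 without naive replicate 1, 0.04 without YAP1-MAMLD1-dR3R1 replicate 2 or 3 and 0.014 to 0.034 without a YAP1-TFE3 replicate. The cause was not tested. Small differences of YAP1-TFE3, such as those of Lrp6 and Axin2, are relative to that shift. Members under 5 CPM rest on few counts.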
